A study of Mus musculus with 2 samples.

Results

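In J558 allografts 7 genes of plasma cell identity and growth were followed, namely the transcription factor genes Prdm1, Irf4, Pou2af1, Mef2b and Myc, and the surface protein genes Sdc1 and Tnfrsf17. They were chosen by name, and all 7 were found among the 32285 features of the gene count matrices. J558 is a BALB/c plasmacytoma line. The cells were injected subcutaneously into female BALB/c mice, which then received vehicle (0.5% methylcellulose) or TAK-931 at 60 mg/kg by mouth once daily for 6 days. TAK-931 inhibits CDC7, a kinase that starts DNA replication. No transgene was named for the mice, which had an intact immune system, the tumour cells came from 1 line, and each library was made from 1 allograft, picked by the study as representative of its treatment. Droplet 3′ single-cell RNA sequencing gave 1 library per treatment, so no difference below has a replicate check, no test was run, and every interval is a 95% interval that covers counting error only. Levels are given as CPM, the unique molecular identifiers (UMIs, each standing for 1 captured transcript) of a gene per 1000000 UMIs of a cell group.

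Plasma cells arise from activated B cells. Prdm1 encodes Blimp-1, a repressor that shuts down the B cell programme, and Irf4 encodes a factor that plasma cells need for their formation and survival. Pou2af1 encodes OCA-B, which binds octamer factors and raises transcription from immunoglobulin promoters, and Mef2b encodes a MADS-box factor best known from germinal centre B cells. Myc drives growth and is joined to an immunoglobulin locus by translocation in most mouse plasmacytomas. Sdc1 encodes syndecan-1 (CD138), the usual surface marker of plasma cells that is also made by many epithelial and stromal cells, and Tnfrsf17 encodes BCMA, a receptor for the survival ligands BAFF and APRIL.

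J558 cells were taken as barcodes with at least 3 UMIs of Trap1a, the gene of the plasmacytoma antigen P1A. After barcodes of 2000 or fewer genes, or of 15% or more mitochondrial UMIs, were set aside, the vehicle allograft gave 3022 of 3441 and the TAK-931 allograft 124 of 3488 such cells, with medians of 42481.5 and 73592 UMIs per cell. Just inside the limit lay 26 and 4 cells with 3 to 5 Trap1a UMIs, and just outside it 13 and 24 barcodes with 2. Of the J558 cells, 3008 and 96 lay in clusters with plasmacytoma markers. The other 14 vehicle and 28 TAK-931 cells lay in other clusters, 0 and 16 of them in that of CD8 T-like cells, and remain in the J558 values unless stated. The label calls J558 a B lymphocyte, but the B cell gene Pax5 was at 0.0595 and 0 CPM and Cd79a at 0.424 and 0.333 CPM, whereas Cd79b was at 129.8 and 131 CPM and the plasma cell gene Jchain at 2843 and 7062 CPM. The TAK-931 J558 cells carried more RNA of 71 markers of other lineages. These markers were kept for being low in vehicle J558 cells, so the vehicle values were limited by that choice. In TAK-931 J558 cells 56 of 71 were detected and in vehicle J558 cells 63 of 71, with summed levels of 840 and 87.6 CPM. The medians were 12 (range 0 to 711) and 1 (range 0 to 1220) UMIs per cell. The leukocyte gene Ptprc stood at 76.9 against 2.01 CPM, the macrophage genes Lyz2 at 161 against 8.24 and C1qa at 109 against 7.78, and the T cell gene Cd3e at 30.8 against 0.067 CPM. Doublets were not removed, and 36 TAK-931 and 35 vehicle J558 cells held at least 5 such UMIs per 10000. Values without those cells are given below as values without mixed cells, an alternative chosen after seeing the data. Of all barcodes 8 were shared by the libraries, 1 of them kept.

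The genes lie on 7 chromosomes of the mouse build GRCm38. Prdm1 is at chr10:44437177-44528501 on the minus strand. The others are on the plus strand, Irf4 at chr13:30749226-30766976, Pou2af1 at chr9:51213708-51240080, Mef2b at chr8:70139711-70167488, Sdc1 at chr12:8771323-8793715, Myc at chr15:61985391-61990374 and Tnfrsf17 at chr16:11313812-11320074. Mef2b overlaps Borcs8 on the same strand, with 62 exonic bases in common, so a read within those bases does not tell the genes apart. The noncoding gene Gm47828 lies in an intron of Pou2af1 with 0 exonic bases shared.

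Promoter windows of 250 bases before the RefSeq transcription start were found for 6 of the 7 genes, all but Myc. Mef2b and Tnfrsf17 are shown because they alone of the 7 differed at least 2-fold between the libraries in J558 cells. Capitals mark the octamer ATGCAAAT, bound by OCT factors together with OCA-B, in Mef2b (-85 to -78 from the start), and in Tnfrsf17 a MEF2 site (-115 to -106, a pattern matched on both strands) followed by the interferon-type repeat GAAANNGAAA read on the minus strand (-101 to -92). The windows are Mef2b at chr8:70152511-70152760 and Tnfrsf17 at chr16:11313559-11313808 (GRCm38.p6, plus strand), and the former lies inside the Mef2b gene span given above.
Mef2b: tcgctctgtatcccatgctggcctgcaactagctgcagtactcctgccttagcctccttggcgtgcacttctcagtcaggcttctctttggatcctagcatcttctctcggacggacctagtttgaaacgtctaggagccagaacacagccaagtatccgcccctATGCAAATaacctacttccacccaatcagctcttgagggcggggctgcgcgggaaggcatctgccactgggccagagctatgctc
Tnfrsf17: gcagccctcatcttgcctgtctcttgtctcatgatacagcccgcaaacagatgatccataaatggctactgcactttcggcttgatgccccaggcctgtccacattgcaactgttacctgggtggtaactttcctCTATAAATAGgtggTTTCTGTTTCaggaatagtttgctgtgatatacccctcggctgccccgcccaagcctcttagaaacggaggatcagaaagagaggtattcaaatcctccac
Among 32851 windows of this length, searched on both strands, 1.60% held the octamer, 0.508% the MEF2 site, 2.98% the interferon-type repeat and 6.02% the E-box CACGTG that MYC and MAX bind. The windows of Prdm1, Irf4, Pou2af1 and Sdc1 held none of these 4 motifs, and the E-box was in none of the 6. A match describes letters in a window, and binding was not measured.

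J558 cells were set against all other cells of their library to ask where the 7 genes were expressed. In the vehicle library 5 of the 7 were at least 2-fold higher in J558 cells, where 21.7% of 13429 features with at least 50 UMIs were, and in the TAK-931 library 7 of the 7, against 17.9% of 13455 features. Because the genes were named as plasma cell regulators, these counts describe the cells rather than test the list. In the vehicle library Mef2b was at 203 CPM in J558 and 2.78 CPM in other cells (log2 ratio 6.19, 5.53 to 6.94), and with TAK-931 at 68.3 and 0.730 CPM (6.55, 6.10 to 7.02). Pou2af1 was at 1011 and 14.5 CPM (6.12, 5.83 to 6.43) with vehicle and at 835 and 2.42 CPM (8.43, 8.19 to 8.68) with TAK-931. For Tnfrsf17 the ratios were 5.42 (4.30 to 6.87) and 7.11 (6.66 to 7.59), and only 6 of its vehicle UMIs lay outside J558 cells. With the clusters in place of the Trap1a limit the vehicle ratios were 3.10 for Mef2b, 3.38 for Pou2af1 and 3.54 for Tnfrsf17. The TAK-931 ratios were then 5.40, 5.36 and 4.39.

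The remaining genes were shared with other cells. Irf4 was at 119.9 against 5.26 CPM in the vehicle library (log2 ratio 4.51, 4.03 to 5.04) and at 175 against 9.97 CPM under TAK-931 (4.13, 4.00 to 4.27). With the clusters in place of the Trap1a limit its vehicle ratio was 2.93. Myc was at 293 against 43.9 CPM (2.74, 2.57 to 2.91) and at 408 against 37.0 CPM (3.46, 3.39 to 3.54). Prdm1 and Sdc1 separated the tumour least. Prdm1 was at 113 against 61.5 CPM (0.87, 0.73 to 1.02) and 141 against 53.7 CPM (1.39, 1.29 to 1.48), and Sdc1 at 132 against 88.8 CPM (0.57, 0.45 to 0.69) and 134 against 23.6 CPM (2.51, 2.40 to 2.62). Between the libraries the Sdc1 level was thus alike in J558 cells, while that of the other cells, whose makeup differed, was not. Calls near 2-fold changed with the choices made. Over the alternatives the Prdm1 ratio ranged from 0.82 to 1.14 with vehicle and from 0.73 to 1.56 with TAK-931. That of Sdc1 ranged from 0.44 to 1.21 and from 1.98 to 2.68.

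**Figure D1:**
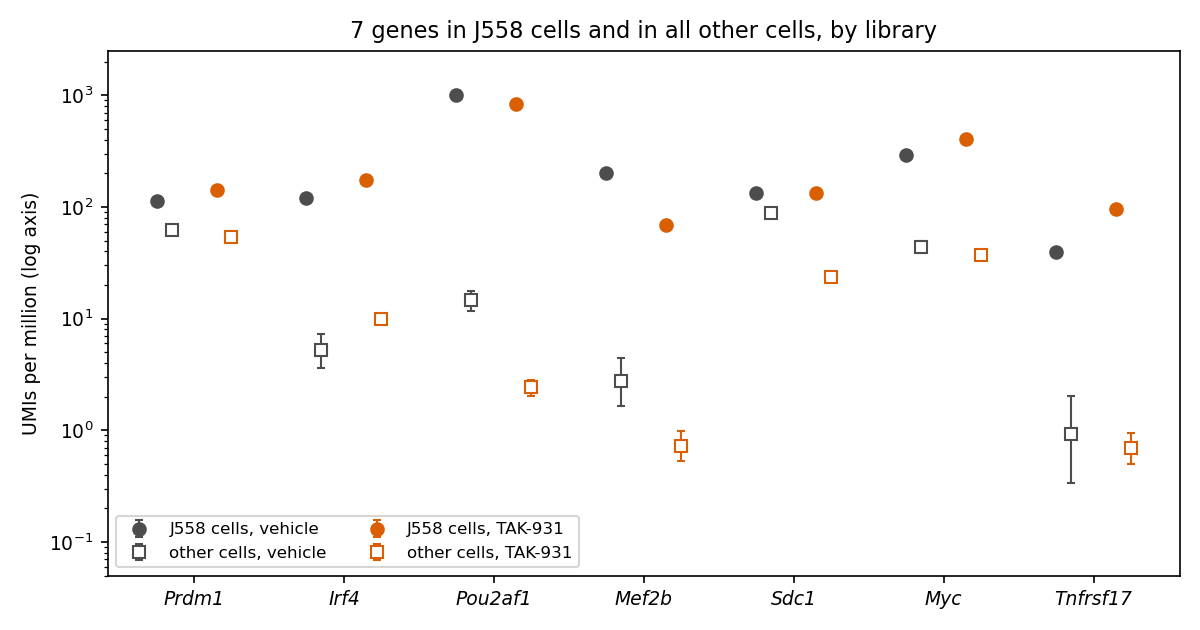
Levels of the 7 genes (CPM, log axis) in J558 cells (filled circles) and all other cells (open squares) of the vehicle (grey) and TAK-931 (orange) libraries, with 95% counting intervals. The circles stand above the squares of the same library for each gene, by the least for Sdc1 and Prdm1 in the vehicle library.

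Among classes of at least 10 cells, 8 with vehicle and 10 with TAK-931, J558 cells had the highest level of each gene except Sdc1, although for Tnfrsf17 the vehicle interval overlapped that of NK-like cells (1 UMI in 10 cells). Prdm1, which macrophages, endothelium and T cells also use, came next in endothelial-like cells (80.7 CPM, 67.4 to 96.0, vehicle, and 83.8 CPM, 75.8 to 92.5, TAK-931), then in CD4 T-like (66.9 CPM, TAK-931) and monocyte/macrophage-like cells (69.2 and 64.1 CPM), whose intervals overlapped. Its vehicle order from endothelial-like down to NK-like cells had overlapping neighbours throughout. Irf4, which also acts in dendritic cells and activated T cells, came next in dendritic-like cells (25.1 CPM, 13.0 to 43.9, vehicle, and 42.8 CPM, 35.7 to 50.9, TAK-931), with plasmacytoid dendritic-like cells at 42.4 CPM (29.8 to 58.4) and CD8 T-like cells at 13.1 CPM (11.1 to 15.4) in the TAK-931 library. At 4000 UMIs drawn per cell, 19.1% of TAK-931 dendritic-like cells had an Irf4 UMI (37.5% without drawing down), and 44.4% of J558 cells (85.5%).

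Pou2af1 was detected at low levels outside J558 cells in the vehicle library. Monocyte/macrophage-like cells showed 16.9 CPM (12.3 to 22.7), and the free RNA estimated for them, from the level at which they held markers of other lineages, came to 20.8 CPM. Endothelial-like and mural-like cells, at 17.7 and 15.3 CPM, also had intervals that held their estimates of 15.1 and 19.4 CPM, whereas dendritic-like (2.09 CPM) and fibroblast-like cells (7.08 CPM) lay below theirs of 13.0 and 17.6 CPM. The estimates are rough, since for Jchain they came to 58.6 CPM in monocyte/macrophage-like and 42.7 CPM in endothelial-like cells, above the 29.7 and 22.1 CPM found, so whether these Pou2af1 UMIs are all free RNA was not resolved. At 4000 UMIs per cell 6.60% of vehicle monocyte/macrophage-like cells had a Pou2af1 UMI against 94.5% of J558 cells (17.9% and 99.5% without drawing down, at median depths of 10361.5 and 42481.5 UMIs). In the TAK-931 library no class other than J558 and dendritic-like cells passed 2.38 CPM. Those stood at 9.71 CPM (6.50 to 13.9), above a free RNA estimate of 4.30 CPM, and the same cluster held the B cell genes Ms4a1 at 72.6 and Cd79a at 64.3 CPM. Mef2b reached at most 4.58 CPM outside J558 cells, in vehicle mural-like cells (3 UMIs). Tnfrsf17 in TAK-931 dendritic-like cells (3.68 CPM) came as 11 UMIs of 1 cell, and its 0 UMIs in TAK-931 endothelial-like cells allow up to 0.785 CPM.

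For Sdc1 the highest class was not the tumour. Mural-like cells, the pericytes and smooth muscle of vessels, stood above J558 cells in both libraries, at 671 CPM (610 to 737) and 286 CPM (264 to 310). Fibroblast-like cells came after J558 cells, at 123 CPM (98.6 to 152) in the vehicle library, where the intervals overlapped, and at 58.8 CPM (48.5 to 70.7) under TAK-931. A single cell held 22.5% of the TAK-931 mural-like Sdc1 UMIs. Myc was next highest in stroma too, at 109 and 122 CPM in mural-like, 99.1 and 246 CPM in fibroblast-like and 44.2 and 82.8 CPM in endothelial-like cells, and lowest in TAK-931 plasmacytoid dendritic-like cells at 2.29 CPM (0.277 to 8.28).

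**Figure D2:**
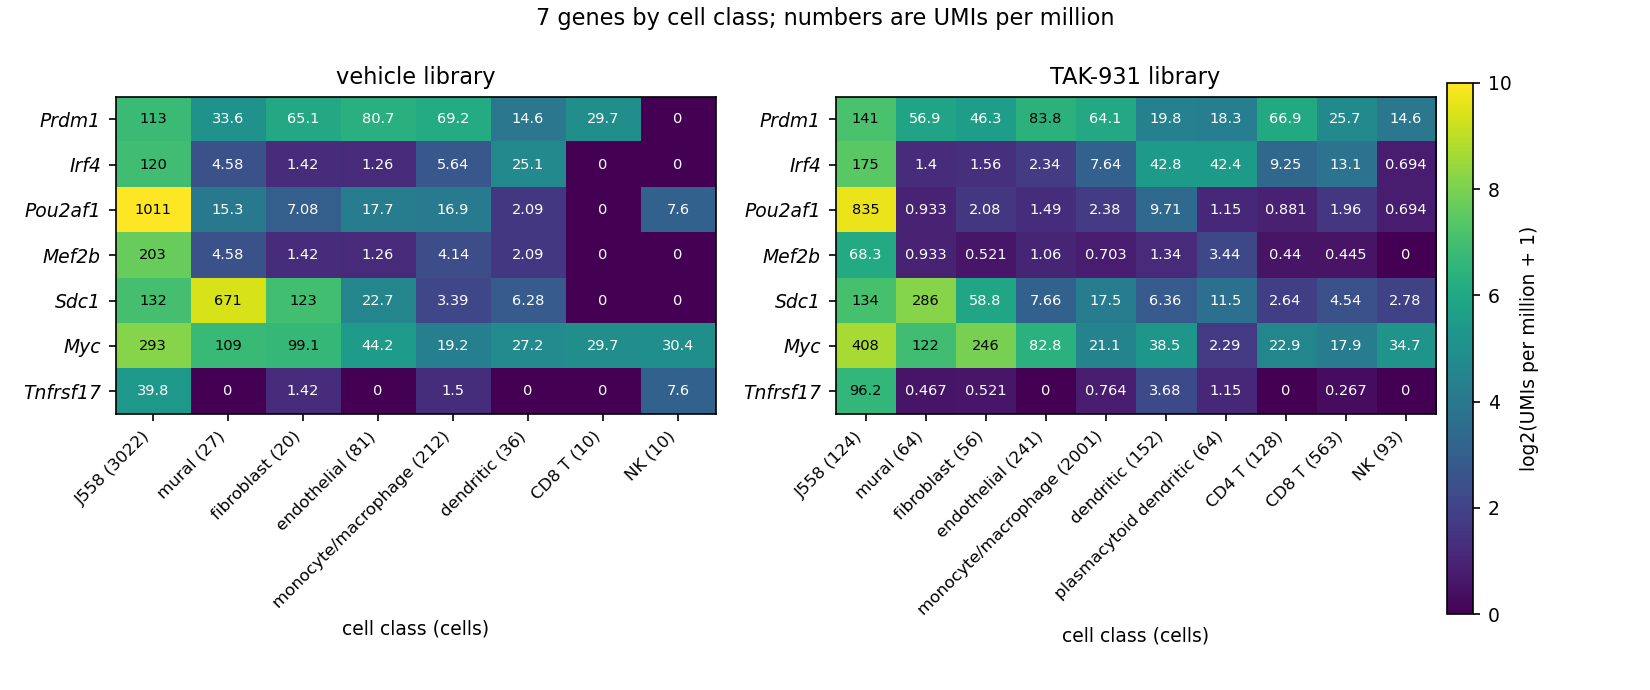
Levels of the 7 genes in each cell class of at least 10 cells, as CPM (printed) and log2(CPM + 1) (colour), with cell numbers after the class names. Read along a row, J558 cells are highest for each gene but Sdc1, which is highest in mural cells (671 and 286), and outside J558 cells Pou2af1 in the TAK-931 library reaches 9.71, in dendritic cells, and at most 2.38 in the other classes.

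Between the libraries, 49 pairs of a gene and a class other than J558 could be formed over 7 classes, and 22 had at least 50 UMIs. Of these, 2 were at least 2-fold higher under TAK-931, against 11% of 49921 feature and class pairs, and 4 were at least 2-fold lower, against 6.54%. With the cell holding most UMIs of the gene left out of each class, 6 were higher and 4 lower. Higher were Sdc1 in monocyte/macrophage-like cells, from 3.39 to 17.5 CPM (9 and 571 UMIs, log2 ratio 2.37, 1.43 to 3.50, with free RNA estimates of 2.81 and 1.16 CPM, so that the vehicle level may be background), and Myc in fibroblast-like cells, from 99.1 to 246 CPM (20 and 56 cells, 1.31, 0.95 to 1.69). Most of these UMIs (439 of 571) lay in 1 cluster, whose leading genes included Chil3, Cd14 and Ly6c2, at 48.0 CPM (43.6 to 52.7) against 7.15 CPM (2.32 to 16.7) in its vehicle cells. The other TAK-931 clusters of the class stood between 3.75 and 6.34 CPM.

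Lower under TAK-931 were Sdc1 in endothelial-like (log2 ratio -1.57, -2.28 to -0.86), mural-like (-1.23, -1.41 to -1.05) and fibroblast-like cells (-1.07, -1.48 to -0.65), and Pou2af1 in monocyte/macrophage-like cells (-2.83, -3.38 to -2.26), where its levels of 16.9 and 2.38 CPM lay beside free RNA estimates of 20.8 and 3.26 CPM. The Sdc1 UMIs of vehicle endothelial-like cells lay in 10 cells, 1 of which held 36.1%, and without that cell the ratio was -0.96 (-1.75 to -0.14), under 2-fold. Without the vehicle cell with most Sdc1 UMIs the fibroblast-like ratio was -0.98, also under 2-fold, and the mural-like ratio -1.22. With the cell holding most Sdc1 UMIs left out of both libraries, all stayed at least 2-fold lower. The ratios were then -1.30 (-2.15 to -0.44) in endothelial-like, -1.14 in fibroblast-like and -1.51 in mural-like cells. Different clusters held the endothelial-like cells, 76 of 81 vehicle cells in 1 and 240 of 241 TAK-931 cells in another, so cluster and library cannot be told apart for them. The other pairs did not reach 2-fold or were not resolved. Myc in endothelial-like cells was at 0.91 (0.54 to 1.30) and Prdm1 in mural-like cells at 0.76 (0.10 to 1.49). Irf4 in CD8 T-like cells had 147 TAK-931 and 0 vehicle UMIs, the latter from 10 cells, which leaves its ratio unresolved. Prdm1 in monocyte/macrophage-like cells went from 69.2 to 64.1 CPM (-0.11, -0.33 to 0.11) and in endothelial-like cells from 80.7 to 83.8 CPM (0.05, -0.24 to 0.36).

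In J558 cells the genes did not move as a group between the libraries. Tnfrsf17 was at least 2-fold higher under TAK-931 (1 of 7, against 9.7% of 12511 features) and Mef2b at least 2-fold lower (1 of 7, against 4.68%), and the median over all these features was 0.03. For Mef2b the vehicle level of 203 CPM (200.3 to 205) compared with 68.3 CPM (63.0 to 73.9) under TAK-931, and the log2 ratio was -1.57 (-1.69 to -1.45). Tnfrsf17, at 39.8 CPM (38.8 to 40.9) under vehicle, was at 96.2 CPM (89.9 to 103) under TAK-931, and its log2 ratio was 1.27 (1.17 to 1.38). Neither rested on 1 cell: the highest TAK-931 cell held 6.99% of the Mef2b and 7.84% of the Tnfrsf17 UMIs. Without mixed cells (2987 and 88 cells) the Mef2b ratio was -1.40 and that of Tnfrsf17 1.19, and with the J558 clusters in place of the Trap1a limit (3022 and 98 cells) they were -1.40 and 1.18.

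The other 5 genes stayed within 2-fold. Among the factors, Irf4 went from 119.9 to 175 CPM (log2 ratio 0.54, 0.47 to 0.62), Prdm1 from 113 to 141 CPM (0.32, 0.24 to 0.40) and Myc from 293 to 408 CPM (0.48, 0.43 to 0.53). The coactivator gene Pou2af1 went from 1011 to 835 CPM (-0.28, -0.31 to -0.24). The syndecan gene Sdc1 was level at 132 and 134 CPM (0.03, -0.06 to 0.11). Without mixed cells these ratios were 0.70 for Irf4, 0.38 for Prdm1, 0.55 for Myc, -0.15 for Pou2af1 and 0.12 for Sdc1. Differences of this size followed the choice of cells. With every J558 cell of 5 or more other-lineage UMIs left out, 2905 vehicle and 18 TAK-931 cells remained, with medians of 42306 and 20735.5 UMIs, and Prdm1 was at -0.33, Sdc1 at -0.50, Mef2b at -0.81 and Tnfrsf17 at 1.07. With cells of at least 1 Trap1a UMI (3092 and 373 cells) Irf4 was at -0.05, Myc at -0.09, Mef2b at -2.20 and Tnfrsf17 at 0.65. Most of those 373 TAK-931 cells lay outside J558 clusters, and their median depth was 21591 UMIs. The contribution of other cells' RNA to the ratios was not tested further.

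**Figure D3:**
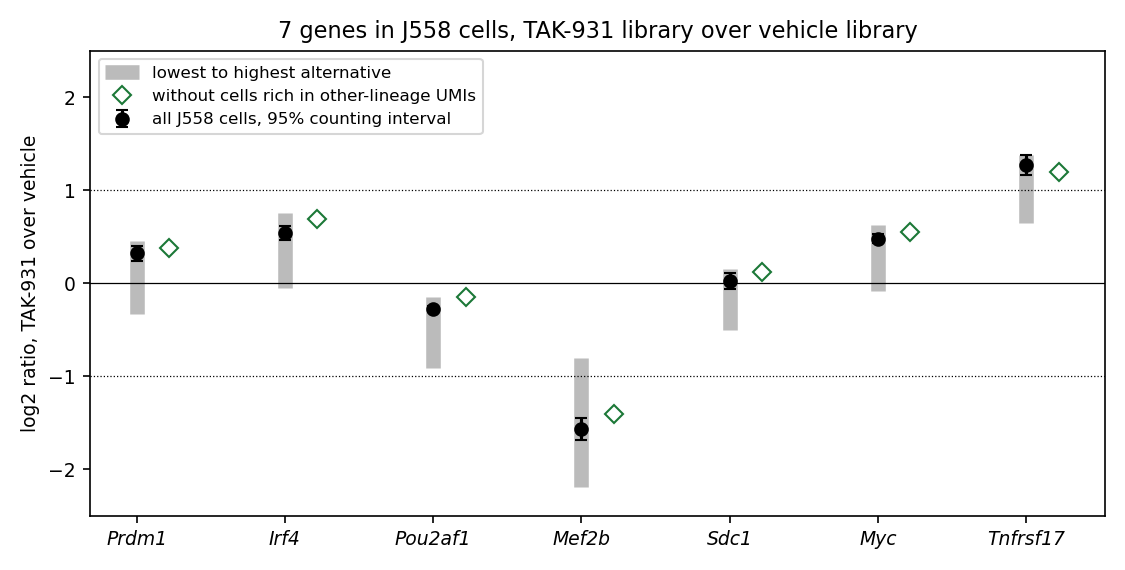
Log2 ratio of TAK-931 to vehicle J558 levels for the 7 genes (black, with 95% counting intervals), without mixed cells (green diamonds), and the range over 14 alternative choices (grey bars); dotted lines mark 2-fold. Mef2b stays below 0 (-2.20 to -0.81) and Tnfrsf17 above 0 (0.65 to 1.38) over the bars, and those of Prdm1, Irf4, Sdc1 and Myc cross 0.

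The same 2 genes stood out cell by cell. At 10000 UMIs drawn from each J558 cell (2989 vehicle and 123 TAK-931 cells, with 33 and 1 too shallow), Mef2b was detected in 79.4% of vehicle (77.9 to 80.9) and 39.0% of TAK-931 cells (30.4 to 48.2), or 97.7% and 72.6% without drawing down. Its median fell from 2 to 0 UMIs per cell, and 615 vehicle and 75 TAK-931 cells had 0. Tnfrsf17 was detected in 28.6% (27.0 to 30.3) and 49.6% (40.5 to 58.8), or 62.9% and 81.5% without drawing down. In monocyte/macrophage-like cells, which should lack both, the highest share at 4000 UMIs was 1.89% for Mef2b and 1.42% for Tnfrsf17, against 18.5% and 25.8% of TAK-931 J558 cells at that depth (median depths of 10361.5 UMIs per cell in the former and 73592 in the latter).

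The other genes differed little in detection. Prdm1 was found in 60.0% and 63.4% of cells, Irf4 in 60.0% and 59.3%, Sdc1 in 67.2% and 66.7%, Pou2af1 in 99.3% and 97.6% and Myc in 88.9% and 82.9%. Myc counts were more spread among TAK-931 cells, with a variance of 3.05 times the mean against 1.92 among vehicle cells and the same median of 3 UMIs. Pou2af1 had variances of 3.67 and 2.94 times the mean and medians of 7 and 9 UMIs.

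In cells with over 50000 UMIs, a group chosen after seeing the data (936 vehicle and 89 TAK-931 cells, medians of 59412.5 and 84007 UMIs), single cells could be read without drawing down. Mef2b ranged from 0 to 48 UMIs per vehicle cell with a median of 11, and from 0 to 43 with a median of 4 per TAK-931 cell. It was at 0 in 3 vehicle cells and in 18 TAK-931 cells (20.2%, 12.4 to 30.1), although 23 TAK-931 cells had 10 or more. Tnfrsf17 had medians of 2 and 6 and highest cells of 25 and 68 UMIs, with 260 and 4 cells at 0. Irf4 was at 0 in 57 vehicle cells (6.09%, 4.64 to 7.82) and 1 TAK-931 cell, and Myc had medians of 16 and 35 UMIs.

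**Figure D4:**
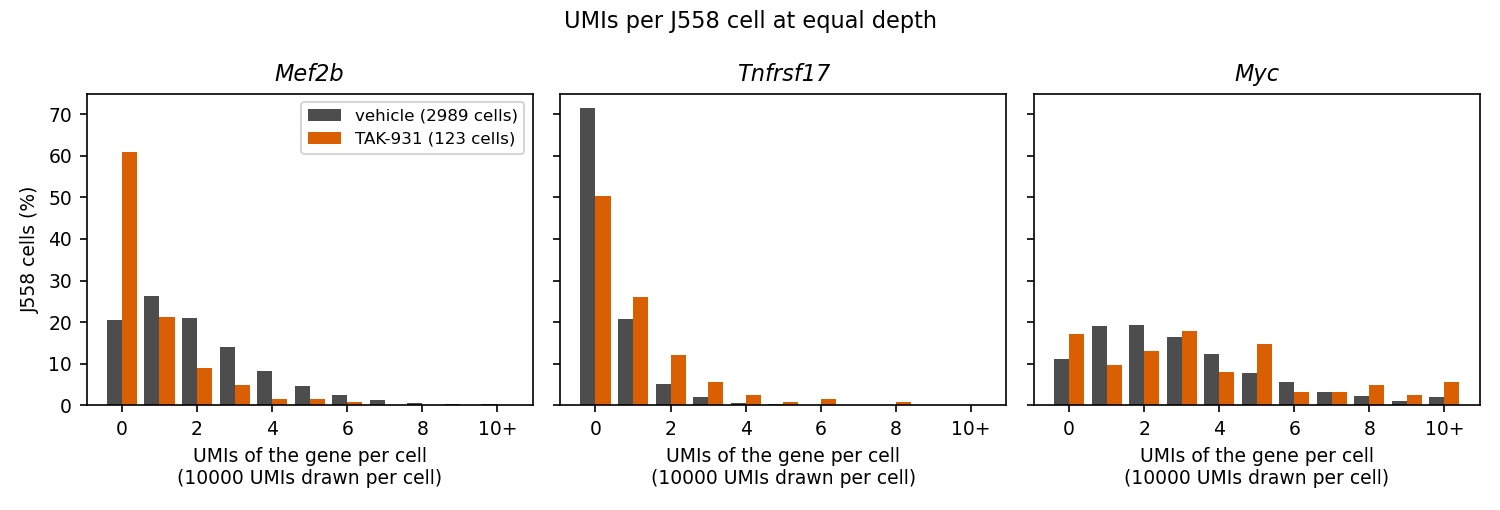
Share of J558 cells (%) by their number of UMIs of Mef2b, Tnfrsf17 and Myc after 10000 UMIs were drawn from each of 2989 vehicle (grey) and 123 TAK-931 cells (orange). Cells without Mef2b were 75 of 123 TAK-931 and 615 of 2989 vehicle cells, and Tnfrsf17 shifts the other way.

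Within a library, a small set of J558 cells low in mitochondrial RNA had a different profile of the 7 genes. J558 cells with under 2.5% mitochondrial UMIs, a limit chosen after seeing the data, numbered 106 with vehicle and 9 with TAK-931 and were shallow, with medians of 12813.5 and 19441 UMIs. In vehicle cells Prdm1 was at 36.4 CPM in them and 114 CPM in the rest (log2 ratio -1.64, -2.01 to -1.29), Sdc1 at 58.3 and 133 CPM (-1.19, -1.48 to -0.91) and Irf4 at 53.8 and 121 CPM (-1.17, -1.47 to -0.88). Mef2b alone was higher, at 266 and 202 CPM (0.40, 0.26 to 0.53). Pou2af1 was at -0.50, Myc at -0.38 and Tnfrsf17 at -0.43. In the 9 TAK-931 cells Mef2b was at 178 CPM against 65.9 CPM in the rest (1.43, 0.89 to 1.93) and Prdm1 at 2 UMIs (-3.78, -6.83 to -1.92). Between the libraries, cells above the limit (2916 and 115) gave -1.61 for Mef2b, 1.29 for Tnfrsf17 and -0.29 for Pou2af1. Cells below it gave -0.58 (-1.13 to -0.08) for Mef2b, 0.30 (-1.08 to 1.44) for Tnfrsf17 and 0.40 (0.16 to 0.62) for Pou2af1. Pou2af1 was thus of opposite sign on the 2 sides of the limit, as were Prdm1 (-1.80 below and 0.34 above), Myc (-0.43 and 0.49) and Sdc1 (-0.31 and 0.04), whose intervals below it included 0.

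Across 4 equal groups of vehicle J558 cells by depth the genes differed less. Irf4 went from 135 to 105 CPM and Myc from 323 to 275 CPM from the shallowest to the deepest group, whereas Prdm1 was at 111 and 109 CPM, Mef2b at 189 and 202 CPM and Tnfrsf17 at 40.2 and 37.3 CPM.

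CDC7 acts when DNA replication begins, so J558 cells were also compared by cycle state. J558 cells were put into 3 groups by their summed UMIs of 52 G2/M genes at 10000 UMIs per cell, with limits of 19 and 57 set on vehicle cells. The bottom and top groups held 1030 and 983 vehicle cells and 19 and 40 TAK-931 cells, and 250 vehicle and 8 TAK-931 cells lay within 1 UMI of a limit. For 43 S phase genes, with limits of 12 and 26, the groups held 1044 and 967 and then 19 and 49 cells, with 486 and 21 near a limit. Of the 7 genes 0 differed at least 2-fold between top and bottom by G2/M, with vehicle (against 8.17% of features) or with TAK-931 (13.6%), and 0 by S phase (7.77% with vehicle and 13.6% with TAK-931). Cells of at least 1 Trap1a UMI lay mostly outside J558 clusters in the TAK-931 library. With them, 6 of the 7 genes differed at least 2-fold there by G2/M and 6 by S phase.

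Irf4 followed the G2/M groups most in vehicle cells, at 146 CPM in the bottom and 101 CPM in the top group (log2 ratio -0.54, -0.59 to -0.49). Sdc1 was at 148 and 122 CPM (-0.28), Tnfrsf17 at 44.0 and 37.3 CPM (-0.24), Myc at 322 and 280 CPM (-0.20), Prdm1 at 122 and 108 CPM (-0.18) and Pou2af1 at 1058 and 975 CPM (-0.12). Mef2b was at 199.8 and 214 CPM (0.10, 0.06 to 0.14, but -0.03 with median ratio scaling), and the median over all features was 0.12. Median depth moved with the groups, 35619.5 UMIs per cell in the bottom and 53773 in the top group. Among cells with over 50000 UMIs Irf4 was at -0.31 and Myc at -0.01.

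By S phase genes the vehicle ratios were between -0.39 (Irf4) and 0.08 (Mef2b, -0.03 with median ratio scaling), and among cells with over 50000 UMIs those of Prdm1, Sdc1, Myc and Tnfrsf17 were above 0, at 0.03, 0.10, 0.22 and 0.11. Small groups limited the TAK-931 library. By G2/M the log2 ratio was 0.40 (0.28 to 0.53) for Pou2af1, 0.23 (0.07 to 0.39) for Myc, -0.48 (-0.78 to -0.16) for Tnfrsf17 and -0.26 (-0.48 to -0.02) for Irf4, and the intervals for Prdm1 (0.11), Mef2b (0.40) and Sdc1 (0.02) included 0. By S phase it was 0.57 (0.41 to 0.74) for Myc, 0.55 (0.14 to 0.98) for Mef2b, 0.33 (0.06 to 0.62) for Sdc1 and 0.26 (0.15 to 0.38) for Pou2af1. Irf4 was at 0.27 (0.01 to 0.53), and Prdm1 (0.01) and Tnfrsf17 (-0.03) had intervals that included 0. By S phase Irf4, Myc (-0.08 with vehicle), Sdc1 (-0.11) and Pou2af1 (-0.03) thus lay opposite to their vehicle ratios. By G2/M Pou2af1 (-0.12 with vehicle) and Myc (-0.20) did so too. At each G2/M state Mef2b was lower and Tnfrsf17 higher in TAK-931 than in vehicle J558 cells.

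**Figure D5:**
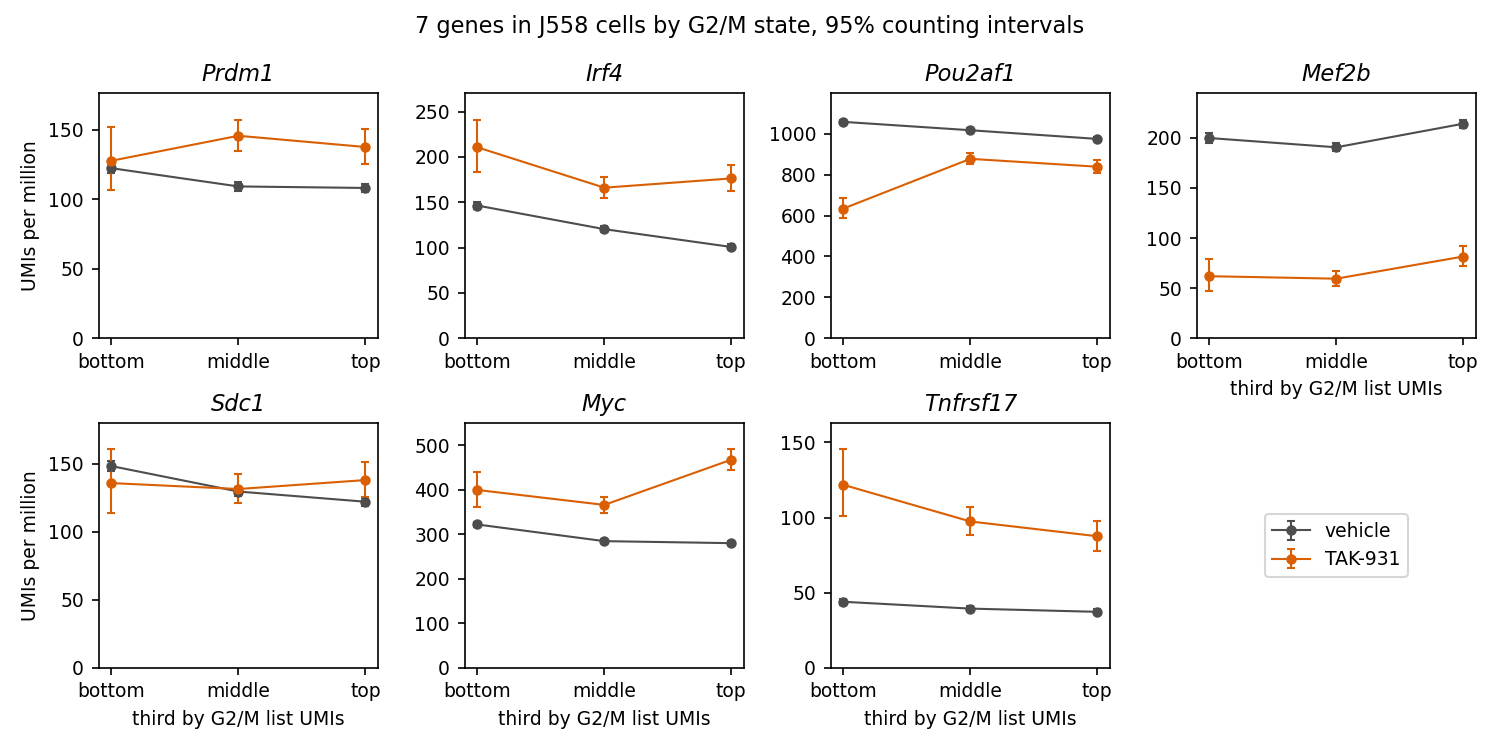
Levels (CPM) of the 7 genes in J558 cells by bottom, middle and top group of summed G2/M UMIs, in the vehicle (grey) and TAK-931 (orange) libraries, with 95% counting intervals. Mef2b in TAK-931 cells lies below and Tnfrsf17 above vehicle cells in each group, and Irf4 in vehicle cells declines from 146 to 101.

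Other genes of the pathways were counted in J558 cells without a test, by lists drawn up with earlier results of these data known, over genes with at least 10 UMIs. Of 15302 features so measured 2262 were at least 2-fold higher and 694 at least 2-fold lower under TAK-931, with a median log2 ratio of 0.06. Of 21 plasma cell genes 7 were higher and 0 lower (median 0.58), but 4 were higher and 1 lower with a limit of 1 Trap1a UMI, and 3 and 1 with cells of 5 or more other-lineage UMIs left out. With at least 50 UMIs, the minimum for the genes named as extremes of each list, the most extreme were Ikzf3, a lymphoid zinc finger factor (2.81, or 2.27 without mixed cells), and Cd28, a costimulatory receptor that plasma cells also carry (1.59 and 1.44), against Fkbp11, an ER folding enzyme (-0.49), and Tnfrsf13b, the TACI receptor (-0.40). Among 14 partners of the 7 genes, such as octamer and MEF2 factors, interferon regulatory partners and BCMA ligands, 4 were higher and 0 lower (median 0.58). Their extremes, Batf and Irf8 above and Tnfrsf13b and Tnfrsf13c below, are given here and in the next paragraph. Under the same 2 changes 7 and 1 partners were higher, and 0 and 2 lower.

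Genes of B cell identity, which Blimp-1 represses, were higher in 9 of 17 and lower in 0 (median 1.43). Most of these 9 were under 2-fold without mixed cells. Cd74, the invariant chain of MHC class II and the member with most UMIs of those higher, was at 1.88, or 1.57 (1.52 to 1.61) without mixed cells. Leaving out mixed cells does not remove free RNA, whose share in the Cd74 level was not tested. Fcer2a and Id3 were at 1.93 and 1.43, or 0.97 and 0.91. Bcl6 and Ciita stood at 4.90 and 3.66 on 18 and 11 TAK-931 UMIs, of which 2 and 1 were left without mixed cells. With at least 50 UMIs the highest were Spib and Irf8, at 4.23 and 3.24, and without mixed cells Spib had 0 TAK-931 UMIs and Irf8 was at -0.18. Batf, the highest partner (5.40), had 3 UMIs in each library without them. Without mixed cells 2 genes of the B cell list and 2 partners were at least 2-fold higher, with medians of 0.05 and 0.11. With a limit of 1 Trap1a UMI 14 B cell genes were higher, and with cells of 5 or more other-lineage UMIs left out 1 was higher and 2 lower. The lowest B cell genes were Tnfrsf13c, the BAFF receptor (-0.35), and Cd79a (-0.35).

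Around Myc, 2 of 12 network genes were higher and 0 lower (median 0.67), namely Mnt (1.06, or 0.94 without mixed cells) and Mycl (3.12, from 7 and 12 UMIs, with 0 TAK-931 UMIs without mixed cells). Among those with at least 50 UMIs, Mnt and Mxi1 (0.95 and 0.52), both MAX-binding antagonists of MYC, were the highest, and the MAX partner Mga (-0.35) and the noncoding Myc neighbour Pvt1 (-0.23) were the lowest. With a limit of 1 Trap1a UMI 5 network genes were higher and 2 targets lower, and with cells of 5 or more other-lineage UMIs left out 1 network gene was higher and 1 lower, 1 target was lower, and 4 S phase and 9 G2/M genes were lower. Of 20 target genes 0 were higher and 0 lower (median -0.27), from the chaperonin Hspd1 (-0.83) and nucleolin Ncl (-0.62) to Eif4e (0.10) and Ppan (0.16). Myc itself was at 0.48. S phase genes had 1 of 43 higher, the cyclin Ccne2 (1.51), then E2f8 (0.83), with Prim1 (-0.50) and Pola1 (-0.42) lowest and a median of 0.26. G2/M genes had 2 of 52 higher, Gas2l3 (1.24, or 0.89 without mixed cells) and Psrc1 (1.04, from 8 and 58 UMIs, or -0.45 without mixed cells), with Anp32e (-0.78) and Nusap1 (-0.29) lowest and a median of 0.20.

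Against the other cells of the library, J558 cells were at least 2-fold higher in 14 of 21 plasma cell genes with vehicle and 12 of 21 with TAK-931 (3 and 2 lower), and in 14 and 15 of 20 Myc targets (0 and 1 lower). They were higher in 27 and 29 of 43 S phase and 34 and 39 of 52 G2/M genes, in 4 of 18 and 4 of 20 B cell genes (11 and 13 lower), in 3 and 4 of 14 partners (7 and 6 lower) and in 3 of 12 and 2 of 13 Myc network genes (3 and 3 lower). Over all features 2954 of 16252 and 3000 of 16453 were higher, and 5833 and 5478 lower.

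The pattern of each gene over 16 groups of class and library, each of at least 20 cells, was compared with that of 15087 genes by Pearson's r of log2(CPM + 1). The groups share libraries and differ in depth, so r is a description only. Nearest to Mef2b were Bola1 (0.97), the immunoglobulin gene Iglc3 (0.96) and Trap1a (0.96, a gene that defined the J558 groups, so that its r with any gene of these cells is set by the choice), and nearest to Pou2af1 were Apex1 (0.97), Igha (0.96) and Il17b (0.96). Tnfrsf17 was nearest to AC133103.1, Jchain and AC168977.1 (0.97 each). Prdm1 was nearest to Cited2 (0.88), 4933433G15Rik (0.83) and Prdx4 (0.82), and Irf4 to Gm10553 (0.94), Crb3 (0.91) and Kctd14 (0.90). For Sdc1 they were Igf2bp2 (0.95), Ttc26 (0.93) and Nol3 (0.93), and for Myc Trim32 (0.90), Fam135a (0.89) and Pex11g (0.86).

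Among the 7 genes r was 0.93 for Mef2b with Pou2af1 and 0.89 for Tnfrsf17 with each of them, and as low as 0.02 for Sdc1 with Irf4 and 0.04 for Myc with Irf4. From cell to cell within J558 cells, at 10000 UMIs per cell, r was low. Counts were small there (a mean of 1.11 Prdm1 UMIs per vehicle cell), and counting error lowers r. Whether the genes varied together was thus not resolved. The highest r over 2989 vehicle cells was 0.16 (Irf4 with Prdm1). Over 123 TAK-931 cells it was 0.33 for Myc with Pou2af1 and 0.32 for Myc with Tnfrsf17, and the lowest was -0.20, for Tnfrsf17 with Mef2b.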

How the data were processed

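The deposited matrices hold raw counts of UMIs per gene and barcode, made by the authors with Cell Ranger 6.0.0 and the mouse build mm10 per the labels. The study's methods name a human build, but all features carry mouse identifiers. Reads from 3′ ends count transcripts, not their full length, so levels were not compared between genes.

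A barcode was analysed as a cell if it had more than 2000 genes and less than 15% of its UMIs from mitochondria. Other cells had fewer than 3 Trap1a UMIs and lay outside J558 clusters (14 vehicle and 2 TAK-931 barcodes fitted neither group). Clusters (2000 variable genes, 20 components, 20 neighbours, Leiden resolution 0.5) were named X-like from marker lists with Scanpy 1.11.5, leidenalg 0.10.2 and igraph 0.11.9. UMIs were summed per group and library as CPM. Levels carry exact Poisson, shares exact Clopper-Pearson and ratios exact conditional binomial intervals (Python 3.11.15, NumPy 2.4.6, SciPy 1.17.1, pandas 2.3.3, matplotlib 3.10.9). With 1 library per treatment no test was possible. A sum of 0 was set to 3 counts for ratios. The ratios, their intervals and the drawing down of UMIs were checked on simulated counts with counting error only. The other steps were not.

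The genes and lists were chosen with earlier results of these data known. Named were the 7 genes, the 2 highest and 2 lowest ratios of each list among genes with at least 50 UMIs, and the 3 genes most like each of the 7; others were named after their values were seen. Gene positions came from GENCODE and promoters from RefSeq. Alternatives covered cell filters, the Trap1a limit, scaling, free RNA, mixed cells, cycle grouping and list minimums.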

Additional observations from a re-analysis of the deposited data

Results flagged for a closer look

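Sdc1 differed between the libraries in opposite directions in different cell classes. In monocyte/macrophage-like cells its log2 ratio of TAK-931 to vehicle was 2.37 (1.43 to 3.50), over a vehicle level of 3.39 CPM beside a free RNA estimate of 2.81 CPM, and it was -1.57 (-2.28 to -0.86) in endothelial-like, -1.07 (-1.48 to -0.65) in fibroblast-like and -1.23 (-1.41 to -1.05) in mural-like cells. Of the 36 vehicle UMIs in endothelial-like cells 1 cell held 36.1%, and without it the ratio there was -0.96, under 2-fold. Without the vehicle cell with most Sdc1 UMIs the fibroblast-like ratio was -0.98. With such a cell left out of both libraries the endothelial-like ratio was -1.30 and the fibroblast-like ratio -1.14. The difference between the classes was not tested, because each treatment had 1 library.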

How the results depend on the processing

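With 1 library per treatment no library could be left out. The TAK-931 J558 values rest on 124 cells. No paired analysis was possible because each group had 1 library and no result came from a test. None of the at least 2-fold ratios of the 7 genes changed sign under an alternative, but among the list genes named above Irf8 (3.24) and Psrc1 (1.04) were at -0.18 and -0.45 without mixed cells. Over 14 alternatives the J558 log2 ratio of TAK-931 to vehicle ranged from -2.20 to -0.81 for Mef2b, 0.65 to 1.38 for Tnfrsf17, -0.91 to -0.15 for Pou2af1, -0.33 to 0.45 for Prdm1, -0.05 to 0.75 for Irf4, -0.50 to 0.16 for Sdc1 and -0.09 to 0.63 for Myc. A limit of 1 Trap1a UMI took in 373 TAK-931 cells, most of them outside J558 clusters. With that limit, 0 of the 7 genes were at least 2-fold higher under TAK-931. By G2/M 6 differed at least 2-fold in the TAK-931 library, and 6 by S phase. The lists then had 4 plasma cell genes higher and 1 lower, 14 B cell genes, 7 partners, 5 Myc network and 0 S phase genes higher, and 2 Myc targets and 1 G2/M gene lower. With J558 cells of 5 or more other-lineage UMIs left out, 0 of the 7 genes were at least 2-fold lower, 3 plasma cell genes were higher and 1 lower, 1 B cell gene higher and 2 lower, 1 partner higher and 2 lower, 1 Myc network gene higher and 1 lower, 1 Myc target lower, 0 S phase genes higher and 4 lower, and 1 G2/M gene higher and 9 lower. The cycle groups of the TAK-931 library had too few cells for a value there. Without mixed cells, 2 B cell genes, 2 partners, 0 Myc network and 0 G2/M genes were higher. With J558 clusters in place of the Trap1a limit, 4 B cell, 1 Myc network and 0 G2/M genes were higher. With free RNA subtracted, 1 B cell gene was lower and 0 G2/M genes higher. With 10 Trap1a UMIs, or under 10% mitochondrial UMIs, 1 G2/M gene was higher, and with a list minimum of 50 UMIs 1 Myc network gene. Among cells with over 50000 UMIs, added with the removal of mixed cells after seeing the data, 0 G2/M genes were higher and 1 of the 7 genes differed at least 2-fold by G2/M in the TAK-931 library. Apart from the numbers of cells compared, the cause of these shifts was not tested. With the cell holding most UMIs of a gene left out of each class, also added after seeing the data, 6 pairs of gene and class were at least 2-fold higher. Another 316 counts stayed within 1.5 times their value. Of the ratios of single genes 176 moved, that is, left their counting interval or had none, and 770 stayed inside it.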

Other observations

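Barcodes that the filters on genes and mitochondrial UMIs left out (1124 vehicle and 3070 TAK-931 barcodes, medians of 2533.5 and 1688 UMIs) also held UMIs of the 7 genes. At least 3 Trap1a UMIs were found in 253 and 52 of them. Summed over all of them, Pou2af1 stood at 299 CPM (282 to 317) in the vehicle and 24.4 CPM (21.1 to 28.1) in the TAK-931 library, Mef2b at 114 and 6.58 CPM, Tnfrsf17 at 19.6 and 3.85 CPM, and Prdm1 at 44.9 and 33.1 CPM.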
